A study of Mus musculus with 10 samples.

Results

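Of 208851 regions of open chromatin found in at least 1 of 10 mouse ATAC-seq libraries, 3442 (1.65%) had a peak in both libraries of day 6 of reprogramming, of day 9 and of embryonic stem cells, and no peak in either fibroblast library or either day 3 library. These regions open from day 6 were chosen by that presence and absence of peaks, so the pattern itself is not a result and carries no test. A region is the merged stretch of all overlapping peaks, and a library has it if 1 bp or more of a peak falls in it. The same rule gave 2634 regions open from day 3 (peaks at day 3, day 6, day 9 and ESC, none in fibroblasts), 2473 open from day 9 (peaks at day 9 and ESC alone) and 16521 found in ESC alone. These 3 sets serve for comparison below.

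The study followed the induction of pluripotency in mouse embryonic fibroblasts (MEF) and, by its title, concerns KLF4 and enhancer networks. MEF, DAY3, DAY6 and DAY9 cells had 1 genotype, the polycistronic OKSM cassette at Col1a1, which encodes Oct4, Klf4, Sox2 and Myc, together with the doxycycline-dependent activator M2rtTA at ROSA26, on a C57BL/6 x 129 background. MEF were collected before induction, without doxycycline and unsorted. DAY3 cells were an unsorted population after 3 days with 1 ug/ml doxycycline and 50 ug/ml ascorbic acid in ESC medium. DAY6 and DAY9 cells received the same treatment for 6 and 9 days and were sorted for the surface marker SSEA1, so they represent the marker-positive part of the culture. ESC were the line V6.5, also C57BL/6 x 129, without the cassette, unsorted and grown on irradiated feeder cells. Sorting and time from DAY3 to DAY6 cannot be told apart, and neither can the lack of the cassette and the identity of ESC.

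In ATAC-seq a transposase inserts adapters into accessible DNA, and a peak marks a nucleosome-depleted stretch such as an enhancer or promoter. Enhancers are bound by transcription factors and act on genes over distances of many kilobases, so a gene near a region is not known to be its target. Pluripotent cells rest on a network of transcription factors around Oct4, Sox2 and Nanog, and the passage of fibroblasts to that state includes a change from mesenchymal to epithelial character.

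The 10 libraries held between 45497 and 88980 peaks, with the fewest in DAY3 and the most in ESC. Read totals are not given in the lists, and the background pileup recovered from the peak statistics, a measure of relative depth, was lowest in DAY6 replicate 2 (2.327) and replicate 1 of MEF, DAY6 and ESC (3.415 to 3.483) and highest in MEF replicate 2 (8.322). At summit pileups of 100 to 200 the DAY3 libraries differed by 1.33 times and the DAY9 libraries by 1.42 times the counting variance, against 3.61 times in DAY6. The labels do not say whether the libraries of a stage came from separate animals or cultures. Agreement between those of DAY3 or of DAY9 may thus be little more than the evidence of 1 sample. All libraries carry 1 batch name, and with 2 libraries a stage no test between stages was made.

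Regions open from day 6 lay beside several clusters of microRNAs (miRNAs), short RNAs that repress messages matching their seed, bases 2 to 8. Of 1005 mouse miRNA hairpins in RefSeq (GRCm38, the assembly also called mm10), 51 (5.07%) had such a region within 10 kb. Regions with 3 or more hairpins within that distance were singled out after their values were seen. They lay at the miR-302/367 and miR-290 to miR-295 clusters, which are known for their expression in embryonic stem cells, at the miR-200b, miR-200a and miR-429 cluster, known for epithelial cells, and at miR-23b, miR-27b and miR-24-1. The mature sequences, with the seed in capitals, show that members of the 2 stem cell clusters on different chromosomes carry 1 shared seed:
miR-302b-3p: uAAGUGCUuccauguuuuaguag
miR-302d-3p: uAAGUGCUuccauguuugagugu
miR-294-3p: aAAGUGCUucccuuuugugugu
miR-295-3p: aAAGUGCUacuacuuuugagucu
miR-302c-3p: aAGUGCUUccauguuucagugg
The seed AAGUGCU is common to miR-302b-3p, miR-302d-3p, miR-294-3p and miR-295-3p. The seed of miR-302c-3p reads AGUGCUU. The epithelial cluster has seeds of its own:
miR-200b-3p: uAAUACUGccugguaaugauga
miR-429-3p: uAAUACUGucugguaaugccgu
miR-200a-3p: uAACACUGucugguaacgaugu
Here miR-200b-3p and miR-429-3p share AAUACUG, and miR-200a-3p has AACACUG.

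The region at miR-302/367 (mm10, chr3:127544567-127545384) overlapped the hairpins themselves, inside Larp7. Its fold enrichment, the authors' linear ratio of a peak to its local background, was 9.21 and 3.61 at DAY6, 6.38 and 7.29 at DAY9 and 8.40 and 10.2 at ESC, in the order of replicate 1 and 2. The DAY6 libraries lay on both sides of the DAY9 values, so no order of these stages can be read, and both ESC values lay above both DAY9 values. In DAY6 replicate 2 its −log10 p-value was 5.21, near the floor of 5.00 of that list. The region at miR-200b (chr4:156059138-156060297), 3.39 kb from the nearest hairpin, had folds of 6.39 and 7.65 at DAY6, 9.91 and 10.8 at DAY9 and 10.3 and 5.42 at ESC. DAY9 was above DAY6 in both libraries there, and the ESC libraries lay far apart, 1 below both DAY6 values and 1 between those of DAY9. At miR-290 to miR-295 the region (chr7:3217515-3217973) lay 0.653 kb before the first hairpin and was among the weaker ones, with folds of 2.91 and 4.21 at DAY6, 4.67 and 3.58 at DAY9 and 4.96 and 2.96 at ESC. All 3 stages overlapped. The region 6.19 kb from miR-23b, miR-27b and miR-24-1 (chr13:63293476-63294292), inside Aopep, had folds of 6.06 and 8.56, then 7.65 and 6.78, then 11.9 and 7.47.

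As a group the regions were of middling strength at day 6 and stronger later, relative to other peaks of the same library. Their median fold was 5.16 and 5.41 at DAY6, where the median of all peaks was 5.16 and 5.65. In DAY9 it was 6.47 and 6.45 against 4.44 and 4.42 for all peaks, and in ESC 7.14 and 5.67 against 5.13 and 4.34. The members thus sat near the middle of the DAY6 lists and in the upper part of the DAY9 and ESC lists, with a median percentile by score of 47.6 and 46.0 at DAY6, 66.9 and 67.5 at DAY9 and 69.1 and 67.7 at ESC. A closer comparison is with all regions that had peaks in both libraries of a stage. Their median percentiles were 64.4 and 61.0 at DAY6, 58.0 and 58.5 at DAY9 and 63.0 and 65.2 at ESC. Against these, members were lower at DAY6 and higher at DAY9 and ESC, by little in ESC replicate 2. Of the 3442 members, 1.37% and 0.872% reached the upper 10% of the DAY6 lists, 5.03% and 5.67% that of the DAY9 lists, and 16.8% and 16.2% that of the ESC lists. Regions open from day 3, for comparison, had a median fold of 9.07 and 9.32 in DAY6. Since the presence of these peaks chose the regions, the values are a description.

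**Figure D1:**
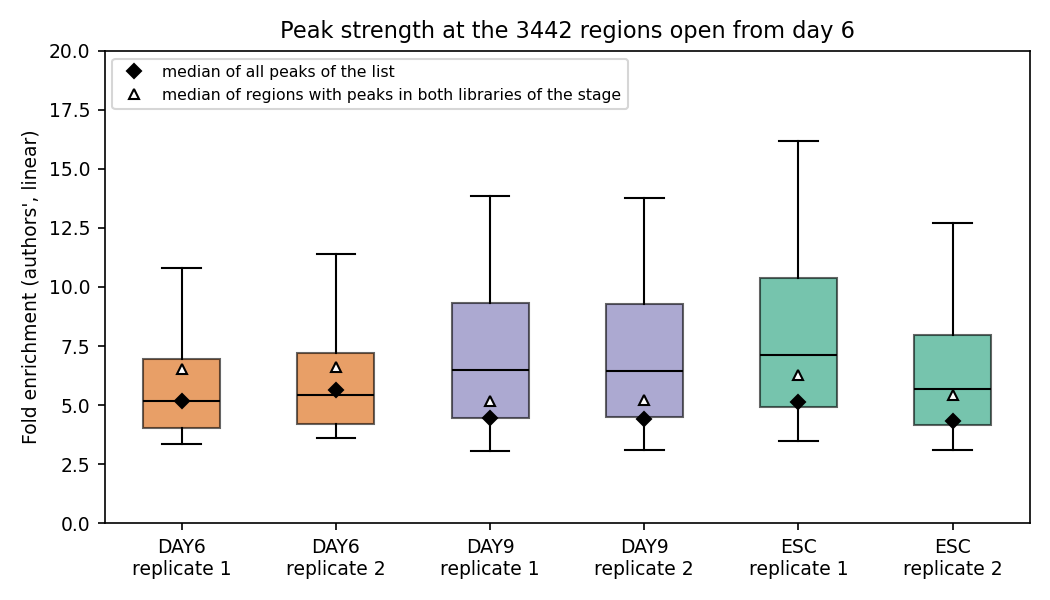
Fold enrichment (vertical axis, authors' linear ratio) of the 3442 regions in each of the 6 libraries that define them. Boxes span the quartiles with the median as a line, whiskers reach the 5th and 95th percentile, diamonds mark the median of all peaks of the list and triangles the median of regions with peaks in both libraries of the stage. The box medians are at or below the diamonds in DAY6 (5.16 and 5.41) and above them in DAY9 and ESC. They are below the triangles in DAY6 and above them in DAY9 and ESC.

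Between stages the fold of a region was compared only where both libraries of a stage lay on the same side of both libraries of another. Among all 27185 regions with a peak in each of the 6 libraries, DAY9 lay above DAY6 in 32.7% and below it in 18.1%, and ESC lay above DAY9 in 18.7% and below it in 41.3%. Among the regions open from day 6, DAY9 lay above DAY6 in 1501 (43.6%), below in 494 (14.4%) and overlapped in 1447. ESC lay above DAY9 in 1056 (30.7%), below in 1033 (30.0%) and overlapped in 1353. The regions open from day 3 had the lower shares of 27.8% with DAY9 above DAY6 and 12.7% with ESC above DAY9. Depth was higher in DAY9 than in DAY6, and its part in these orders was not tested.

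The rule turns on weak peaks at its edge. The lowest of a member's 6 deposited −log10 p-values ran from 5.00 to 93.1 with a median of 7.56, just above the floor of 5.00 of the lists, and was under 10 in 2320 members (67.4%). It lay in DAY6 replicate 2 in 1427 members and in DAY6 replicate 1 in 913, against 104 and 97 at DAY9 and 419 and 482 at ESC. Just outside the rule, 1445 regions without a MEF or DAY3 peak lacked DAY6 replicate 2 alone and 968 lacked DAY6 replicate 1 alone. Another 743 regions had all 6 peaks and a single excluded peak in MEF replicate 1, with a median −log10 p of 9.12, and 529 and 590 had one in DAY3 replicate 1 or 2 alone, with medians of 6.68 and 6.79. Absence of a listed peak is thus no proof of closed chromatin, and 187 members (5.43%) lay within 500 bp of a MEF or DAY3 peak. Without DAY6 replicate 2 the rule gave 4887 regions.

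The members were mostly distal. They had a median width of 814 bp, against 936.5 bp for regions open from day 3, 658 bp from day 9 and 637 bp in ESC alone. Within 1 kb of either end of a protein-coding gene lay 336 (9.76%, 95% Wilson interval 8.81 to 10.8%), a share close to the 10.1% of all merged regions. The share was 7.59% for regions open from day 3, 8.01% for those from day 9, 4.21% for ESC alone and 64.3% for the regions with a peak in all 10 libraries. A listed gene start lay in 155 members (4.50%), against 2.73% and 2.18% of the regions open from day 3 and from day 9 and 1.28% of those in ESC alone, and 5.59% of all merged regions. Inside a protein-coding gene lay 46.3%, against 53.1%, 48.1% and 38.6% in those sets and 51.3% of all merged regions. The median distance to a gene end was 24.5 kb, and 702 members (20.4%) lay over 100 kb from any, as did 21.6% of all merged regions. The 336 members near a gene end had lower median folds than the other 3106 in every one of the 6 libraries, for example 5.79 against 6.49 in DAY9 replicate 1, a split made after the data were seen. Intervals cover counting error only, and neighbouring regions are not independent.

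**Figure D2:**
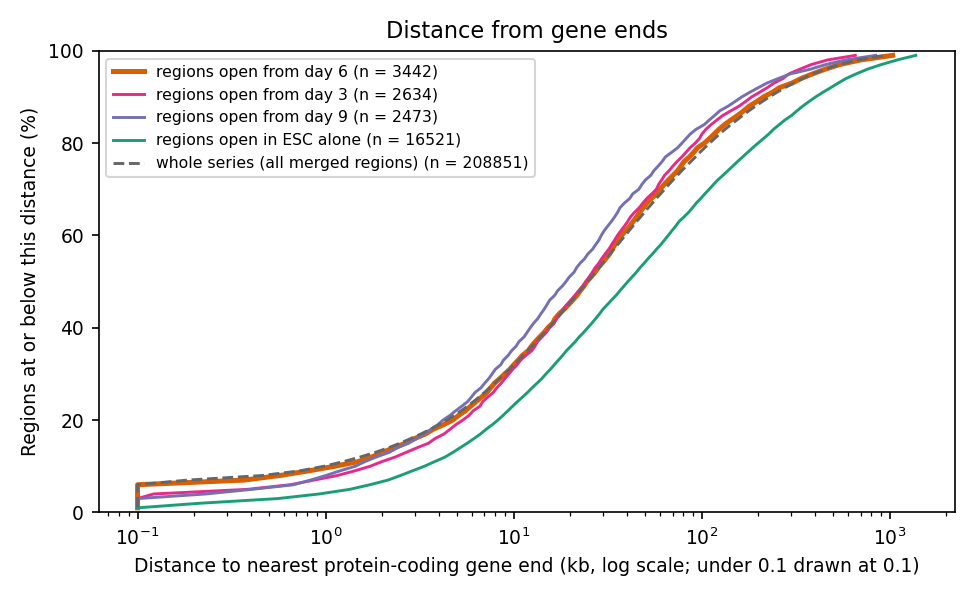
Cumulative share of regions (vertical axis, percent) by distance to the nearest end of a protein-coding gene (horizontal axis, kb, log scale, with distances under 0.1 kb drawn at 0.1). The curve of the 3442 regions open from day 6 runs along that of all 208851 merged regions, and the ESC-alone curve lies to the right, with a median distance of 40.5 kb against 24.5 kb.

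Nearby genes were counted with 10 lists of 198 genes, chosen with earlier results of these data known. Of 21887 protein-coding genes, 4563 (20.8%) had a member within 50 kb of the gene, and 2655 (12.1%) were the nearest gene of a member. The lists above that share by the most were pluripotency transcription factors (13 of 25 genes), pluripotency markers and cofactors (11 of 22), extraembryonic genes (8 of 16) and epithelial genes (12 of 25). Chromatin and DNA methylation genes (8 of 22), neural and early lineage genes (6 of 17), germ cell genes (4 of 12) and mesenchymal genes (8 of 25) lay between. Genes of the signalling pathways of pluripotency (6 of 27) and broadly expressed genes (3 of 16) were near the share of all genes. Regions open from day 3 lay near 7 pluripotency factors, 13 markers, 4 extraembryonic and 9 epithelial genes, against 16.3% of all coding genes. In the same order the counts were 7, 6, 6 and 5 for day 9 (17.8%), and 18, 18, 9 and 13 for ESC alone (52.4%). Nearness to pluripotency genes was thus not particular to the regions open from day 6. When every peak list was shortened to 45497 peaks, the background was 9.95% and the mesenchymal count dropped to 1 of 25. Of the pluripotency factors 10 of 25, and of the epithelial genes 8 of 25, still had a member. Extraembryonic, chromatin, neural and signalling genes also stayed above that background, signalling genes by the least. Median gene length was 9.24 kb in the pluripotency factor list and 45.2 kb in the marker list. It was 32.0 kb in the extraembryonic list and 14.3 kb in the epithelial list. Over the 10 lists it ran from 4.04 kb (neural) to 66.3 kb (chromatin), against 17.2 kb over all coding genes. The part of gene length in these counts was not tested.

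**Figure D3:**
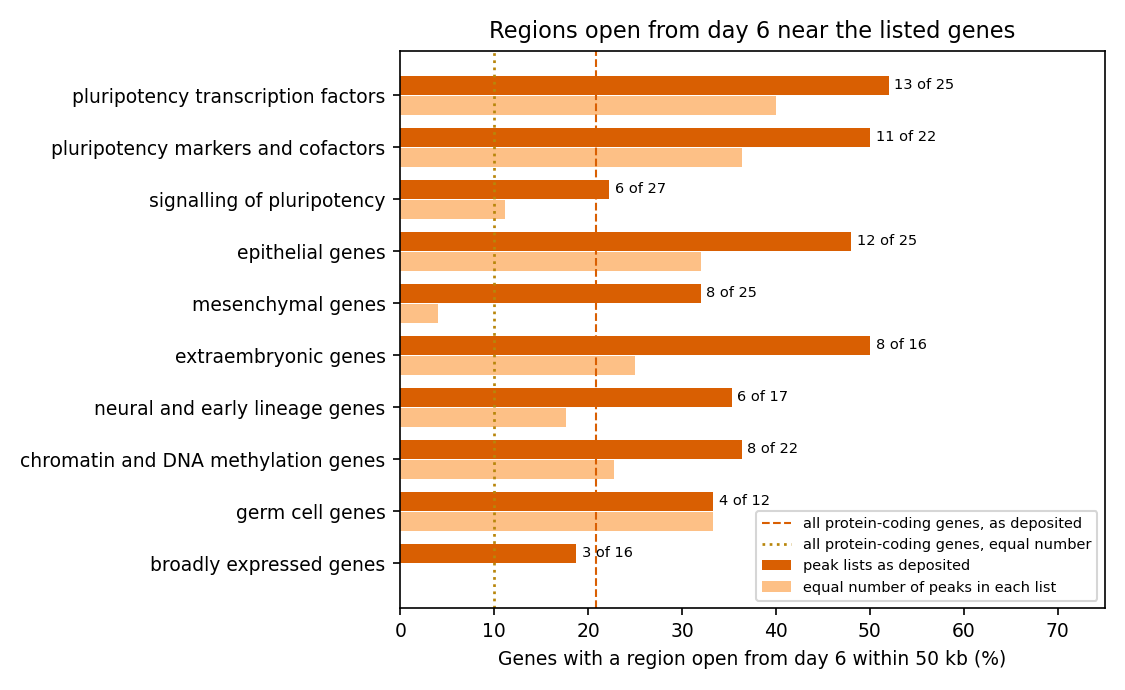
Share of the genes of each list (horizontal axis, percent) with a region open from day 6 within 50 kb, with the peak lists as deposited (dark bars, counts beside them) and with 45497 peaks in every list (light bars). The dashed and dotted lines are the shares of all protein-coding genes, 20.8% and 9.95%. Pluripotency factors, markers and epithelial genes lie to the right of them under both settings, as do extraembryonic, chromatin, neural and signalling genes.

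Among the transcription factors, Prdm14 had the most members. Prdm14, a regulator that represses differentiation and DNA methylation in pluripotent cells, had 4, between 18.1 and 43.4 kb from the gene, all on 1 side. They form the largest cluster of the set (chr1:13069578-13095348, 25.8 kb). The strongest of them (chr1:13084581-13085609) had folds of 8.53 and 8.45 at DAY6, 15.0 and 13.1 at DAY9 and 14.7 and 10.4 at ESC. Both DAY9 values lay above both DAY6 values. The other 3 were weaker, with folds between 3.45 and 9.56.

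Pou5f1, which encodes Oct4, had 1 member 0.814 kb upstream of its start (chr17:35503643-35505218). Its fold was 6.89 and 8.09 at DAY6, 9.02 and 8.80 at DAY9 and 7.69 and 4.91 at ESC. DAY9 was highest, and the ESC libraries overlapped those of DAY6. The region lies outside the gene, whose coding sequence the cassette also carries.

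Foxd3, a forkhead factor needed in the early embryo, had members 13.8 kb before its start and 11.4 kb beyond its other end. The first (chr4:99641688-99642548) was the factor list's region of highest rank, with folds of 12.8 and 10.2 at DAY6, 10.1 and 12.1 at DAY9 and 7.74 and 8.03 at ESC. Here ESC lay below all 4 libraries of sorted cells. The second (chr4:99670070-99670750) went from 5.61 and 10.8 in DAY6 to 13.4 and 12.2 at DAY9 and 13.9 and 9.57 at ESC, so 2 regions around 1 gene differed in their order.

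Klf2, a Krüppel-like factor of the naive state, also had a region on each side. The upstream one (chr8:72310788-72311633, 7.43 kb) had folds of 6.41 and 5.14 at DAY6, 4.29 and 5.88 at DAY9 and 5.11 and 6.35 at ESC, which overlap. The one 11.8 kb downstream, which is nearer to Eps15l1, had 4.04 and 3.61 at DAY6, 11.4 and 10.1 at DAY9 and 11.4 and 6.04 at ESC. Its peak in DAY6 replicate 2 was among the weakest of that list, with a −log10 p-value of 5.21, against 7.53 in replicate 1. The fold of this region stood above both DAY6 libraries in each of the later 4.

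Tcl1, a cofactor of Akt signalling expressed in ESC, had a region 1.59 kb upstream (chr12:105224327-105225392) with folds of 7.41 and 9.36, 6.83 and 8.37, and 6.12 and 7.68 at DAY6, DAY9 and ESC, all overlapping. Sall4, a zinc finger factor of the Oct4 network, had a member over its upper end in the genome (chr2:168766493-168767523) with folds of 5.83 and 6.93, 5.46 and 5.59, and 5.79 and 3.54, and a second one inside the gene. Members also lay inside Esrrb (49.1 kb from its start), Myb, Zscan10 and Nr0b1, and within 50 kb of Klf5, Sall1 and Utf1. The Utf1 region lies inside Kndc1. The folds of these genes' regions ran from 2.15 in an ESC library at Sall1 to 10.0 in DAY9 replicate 2 at Myb. No member lay within 50 kb of the other 12 factors, among them Sox2, Nanog, Klf4, Tfcp2l1, Tbx3, Zfp42, Nr5a2, Gbx2, Mycn, Dppa2 and Dppa4. Of the 12, 9 had a region in ESC alone, where 52.4% of all coding genes did, and Zfp42 had 10 such regions. Nanog, Tfcp2l1 and Mycn had 1, 3 and 2 regions open from day 3.

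**Figure D4:**
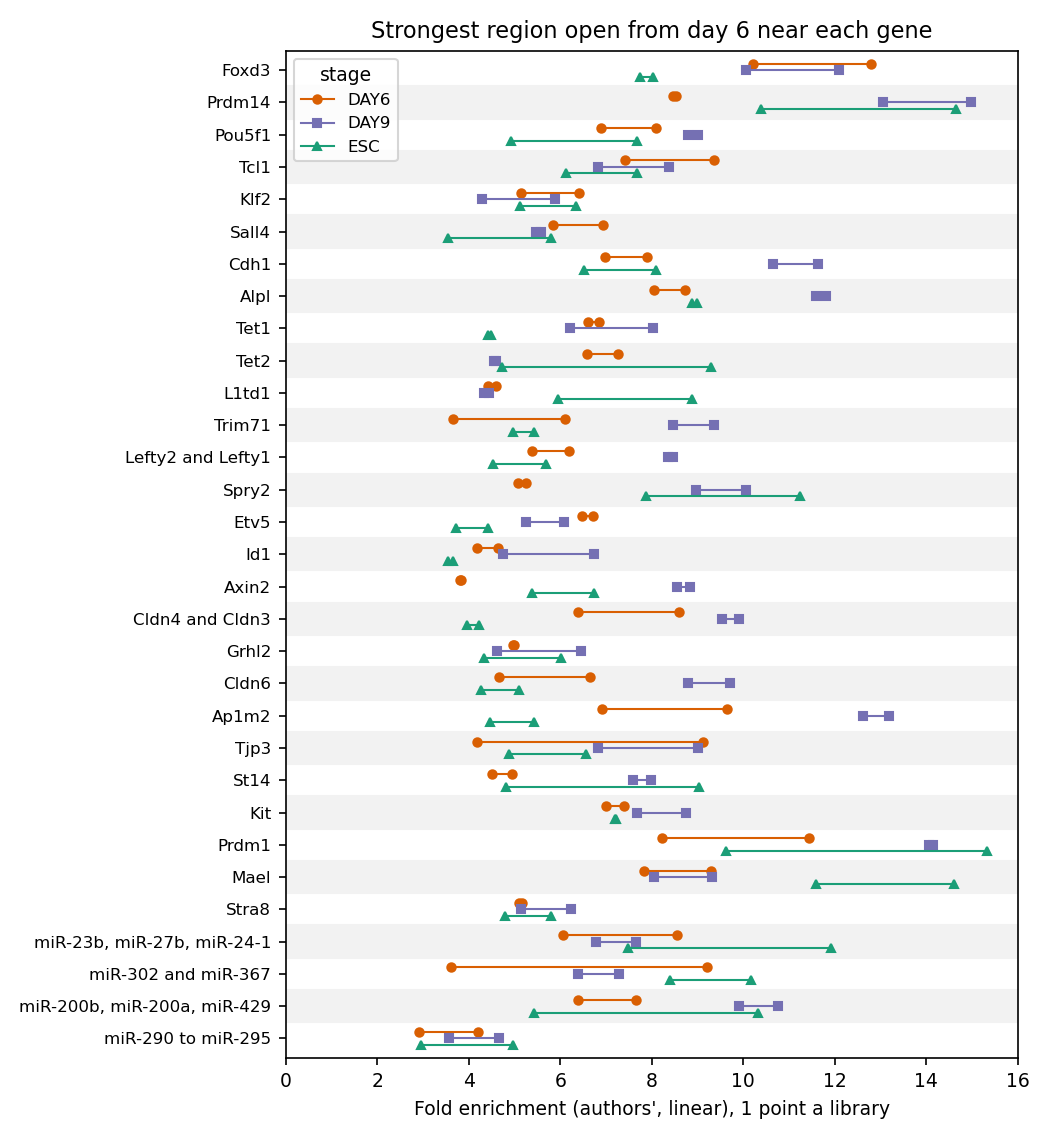
Fold enrichment (horizontal axis, authors' linear ratio, 1 point a library, lines joining the replicates) at the strongest region near each named gene or miRNA cluster. DAY9 squares lie to the right of both other stages at Pou5f1, Cdh1, Alpl, Trim71, Lefty2 and Lefty1, Axin2, Cldn4 and Cldn3, Cldn6, Ap1m2 and Kit. The ESC triangles lie to the right at L1td1 and Mael.

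Among pluripotency markers and cofactors, Cdh1 had the region of highest rank. Cdh1 encodes E-cadherin, the adhesion protein of epithelia and of ESC, and stands in the epithelial list too. Its member covers the end of the gene at the lower coordinate (chr8:106603046-106604344), with folds of 6.98 and 7.90 at DAY6, 11.6 and 10.6 at DAY9 and 8.09 and 6.53 at ESC. DAY9 lay above all other libraries. Alpl, which encodes the alkaline phosphatase used to stain reprogrammed colonies, had a region 4.72 kb upstream (chr4:137801106-137801877) with folds of 8.05 and 8.72 at DAY6, 11.6 and 11.8 at DAY9 and 8.88 and 8.98 at ESC. DAY9 was again highest, and ESC lay above DAY6 by less than the spread of the DAY6 pair.

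Tet1 and Tet2 encode enzymes that oxidise methylated cytosine. The region 5.21 kb before the start of Tet1 (chr10:62892530-62893768) had folds of 6.85 and 6.61 at DAY6, 6.21 and 8.03 at DAY9 and 4.50 and 4.41 at ESC, with ESC below the rest. The stronger of 2 at Tet2 (chr3:133559602-133560196) had 7.26 and 6.58, then 4.55 and 4.59, then 9.30 and 4.72, with DAY9 below DAY6. Trim71, an RNA-binding repressor of differentiation, had 2 regions inside the gene, of which the stronger (chr9:114548987-114549650) had 3.65 and 6.10, 8.46 and 9.37, and 5.42 and 4.97. Its DAY9 values lay above all others. L1td1, an RNA-binding protein of pluripotent cells, had a region 47.2 kb away inside Kank4 with ESC on top (8.88 and 5.94, against 4.33 to 4.596 before) and a weaker one 3.89 kb upstream of its start. Tdgf1, a coreceptor of Nodal, had the widest member of this list, 2333 bp, over its start (chr9:110945985-110948317), with folds of 6.23 and 4.72, 9.46 and 8.53, and 4.90 and 5.18. Fgf4 (2.94 kb upstream), Fut9, Mtf2 and Dppa5a completed the 11 genes. Fut9, whose product synthesises the SSEA1 epitope used for the sort, had a member inside the gene (chr4:25670364-25671220) with 3.82 and 6.31 at DAY6, 7.21 and 5.14 at DAY9 and 13.6 and 6.12 at ESC, which overlap between stages.

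Epithelial genes were near 15 distinct members. DAY9 lay above DAY6 in 11 of the 15 and ESC lay below DAY9 in 10, where the shares over all members were 43.6% and 30.0% and those over all 27185 regions 32.7% and 41.3%. Cldn4 and Cldn3, genes of tight junction claudins, share 2 members, 1 inside Cldn4 and 1 over its start. The inner one (chr5:134945170-134945883) had folds of 8.59 and 6.39 at DAY6, 9.90 and 9.54 at DAY9 and 3.97 and 4.22 at ESC. ESC lay below the others, and DAY9 above them. A region 14.2 kb from Cldn6 (chr17:23664475-23665138), which overlaps Bicdl2, had 6.64 and 4.67, 9.70 and 8.78, and 5.10 and 4.27. Nearer to Cldn6, 1.4 kb away, a second one (chr17:23683846-23684874) overlaps Cldn9. It had 6.5 and 8.76, 8.22 and 7.67, and 3.16 and 3.22, with DAY6 and DAY9 overlapping and ESC below both. The region over the start of Cldn7 (chr11:69965093-69965771) had 3.82 and 5.56, 12.6 and 13.4, and 7.31 and 3.25. All 4 claudin genes of the list had a member, and the Cldn7 region had DAY9 on top.

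Grhl2, an epithelial master transcription factor, had 2 members inside its gene near the end at the lower coordinate. The one of higher rank (chr15:37238525-37239123) had folds of 4.97 and 4.98 at DAY6, 4.61 and 6.45 at DAY9 and 6.02 and 4.34 at ESC, which overlap. The one at the end of the gene (chr15:37232711-37233585) had 5.12 and 5.42 at DAY6, 7.98 and 9.29 at DAY9 and 6.53 and 3.24 at ESC. Ap1m2, an epithelial sorting adaptor, had its member 34.4 kb upstream inside Slc44a2 (chr9:21346778-21347573), with 9.65 and 6.91, 13.2 and 12.6, and 4.46 and 5.42. DAY9 was highest in the Ap1m2 region and in the second Grhl2 region. Tjp3 (tight junction protein, 48.5 kb, region inside Gipc3) had 4.18 and 9.11, 9.01 and 6.82, and 4.89 and 6.57, and its DAY6 libraries differed too much for an order. St14, Spint1 and Marveld3 had members too. At St14, Spint1 and 1 of the 2 Marveld3 regions DAY9 did not lie above both other stages. Dsp, a desmosome gene, had a region 41.7 kb upstream with 4.72 and 3.91, 8.54 and 9.38, and 14.0 and 9.92, in which each stage lay above the one before. By nearest gene alone, 7 of 25 epithelial genes had a member, so several of these assignments rest on distance only.

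Among signalling genes, Lefty1 and Lefty2, secreted inhibitors of Nodal, share 1 region 3.72 kb from Lefty2 (chr1:180902830-180903505). It had folds of 5.37 and 6.18 at DAY6, 8.35 and 8.47 at DAY9 and 5.69 and 4.54 at ESC, with DAY9 highest. Spry2, a feedback inhibitor of FGF signalling, had a region 23.4 kb upstream (chr14:105920190-105921319) with 5.25 and 5.08, 10.1 and 8.97, and 11.3 and 7.87. Both later stages lay above DAY6. At Axin2, a target and inhibitor of Wnt signalling, the region 30.8 kb before the start had 3.83 and 3.80, 8.55 and 8.83, and 5.38 and 6.73, in which no stages overlapped. Etv5, an ETS factor downstream of FGF, had 2 members inside the gene, and in the stronger (chr16:22398322-22398781) the DAY6 folds of 6.72 and 6.48 exceeded 6.09 and 5.25 at DAY9 and 4.42 and 3.72 at ESC. Id1, a BMP target, had 3 weak ones, between 17.7 and 42.4 kb away, with folds from 2.75 to 6.73. The other 21 of the 27 signalling genes had none, while 13 of 27 had a region open from day 3 and 13 of 27 one open from day 9, against 16.3% and 17.8% of all coding genes.

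Other lineages were represented as well. The mesenchymal genes with a member were Zeb2, Loxl2, Snai2, Cdh2, Col3a1, Col1a2, Prrx1 and Fosl1. Zeb2, a repressor of E-cadherin, had a region inside the gene (chr2:45088328-45089064) with folds of 10.6 and 6.31 at DAY6, 8.05 and 10.7 at DAY9 and 7.14 and 4.65 at ESC, which overlap between DAY6 and both later stages. None of the 10 mesenchymal regions had DAY9 above DAY6 in both libraries. Of the extraembryonic genes, Tfap2c, a factor of trophoblast and germ line, had the strongest (chr2:172576941-172578081), 18.3 kb away, with 10.1 and 11.2, 13.0 and 14.6, and 14.5 and 8.94. DAY9 lay above DAY6 there, and the ESC libraries spread over both. Cdx2, Hnf4a, Eomes, Elf5, Tead4, Gata6 and Sox17, developmental regulators of trophoblast or endoderm, were the rest. The Cdx2 region lay over the start of Pdx1, and both Elf5 regions overlapped Cat. Those counted for Hnf4a and Eomes were nearest to Fitm2 and Golga4.

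Of the neural and early lineage genes, Sox1 and Olig2 had 3 members each and Otx2 had 2. The stronger of the Otx2 regions by rank (chr14:48709307-48710248, 41.7 kb upstream) had 6.29 and 3.91 at DAY6, 9.26 and 10.1 at DAY9 and 14.0 and 10.4 at ESC, and the other, 33.1 kb upstream, 3.59 and 4.21, 9.41 and 10.1, and 15.0 and 9.98. DAY9 lay above DAY6 in 9 of the 11 regions of this list. Among germ cell genes, Prdm1, a regulator of germ cell fate, had a region 44.5 kb from the gene with 8.23 and 11.4, 14.1 and 14.1, and 15.3 and 9.63, and Mael, of the piRNA pathway, one inside Ildr2 with 7.84 and 9.30, 8.05 and 9.32, and 14.6 and 11.6. Stra8 and Kit were the other 2. Of the 8 chromatin genes, Chd1, a remodeller of active chromatin, had the strongest region, 26.5 kb away (chr17:15677772-15678494), with 8.53 and 9.82, 13.0 and 12.54, and 7.17 and 7.49, in which DAY9 was highest and ESC lowest.

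At gene starts, the 155 members covered 168 listed starts of 155 genes. The 5 of highest rank lay at Ttc29, Capsl, Adarb2, Kit and Bex4. Kit encodes the receptor of stem cell factor, and its region (chr5:75574411-75575482) varied little, with folds of 6.99 and 7.40 at DAY6, 8.76 and 7.68 at DAY9 and 7.22 and 7.20 at ESC. Both DAY9 values lay above all others there. At Ttc29 (chr8:78212832-78213685) the folds were 9.64 and 13.0, 12.3 and 12.2, and 19.6 and 12.7, and at Capsl (chr15:9435531-9436382) 9.21 and 10.8, 12.4 and 13.9, and 18.2 and 12.8. At Ttc29 the DAY9 values lay between those of DAY6 and ESC lay above DAY9 in both libraries, by little in replicate 2. At Capsl DAY9 lay above DAY6. In the 250 bases upstream of a start, sequences from RefSeq (GRCm38.p6) were searched on both strands for GGGNGTGG (the core bound by Klf factors), ATGCAAAT (the octamer of Pou factors), CATTGT (Sox), TGANTCA (AP-1) and CAAGGTCA (Esrrb), a choice made after the peak lists were seen. The Klf letters were in 26.8% of the 168 starts under members, in 32.1% under regions open from day 3, 21.7% from day 9, 15.7% in ESC alone, 21.5% under regions of all 10 libraries and 17.7% of all 21263 listed starts. The others were in 2.38% (octamer, 1.58% of all starts), 5.36% (Sox, 9.35%), 4.76% (AP-1, 6.13%) and 0.595% (Esrrb, 1.14%). The median GC content was 56.2%, and 55.6% over all starts. A match is no evidence of binding.

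Starts of named genes under members follow, 5′ to 3′, because these regions lie on the promoter itself. Capitals mark matches to the Klf letters in the first 2 and to the AP-1 letters in the third. Tdgf1 (chr9:110946159-110946408, minus strand) holds 2 Klf matches, Kit (chr5:75574737-75574986, plus strand) holds 1, and Cldn4 (chr5:134946935-134947184, minus strand) holds 2 AP-1 matches:
Tdgf1: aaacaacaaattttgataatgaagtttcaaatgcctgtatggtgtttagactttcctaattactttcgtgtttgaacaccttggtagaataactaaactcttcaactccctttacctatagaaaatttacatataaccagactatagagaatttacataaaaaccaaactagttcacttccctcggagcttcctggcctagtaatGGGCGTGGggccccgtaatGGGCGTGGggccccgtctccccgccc
Kit: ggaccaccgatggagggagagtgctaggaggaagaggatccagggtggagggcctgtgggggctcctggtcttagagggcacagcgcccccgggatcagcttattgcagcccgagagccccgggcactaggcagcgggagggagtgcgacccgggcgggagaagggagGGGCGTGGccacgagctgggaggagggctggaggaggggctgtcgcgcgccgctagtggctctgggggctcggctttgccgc
Cldn4: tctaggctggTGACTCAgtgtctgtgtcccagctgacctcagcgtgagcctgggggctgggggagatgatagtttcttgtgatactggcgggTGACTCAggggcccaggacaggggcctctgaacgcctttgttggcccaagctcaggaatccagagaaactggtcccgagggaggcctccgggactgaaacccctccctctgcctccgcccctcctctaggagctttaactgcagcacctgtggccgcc
The region over the Tdgf1 start had its highest folds in DAY9 (9.46 and 8.53). The one over the Cldn4 start (chr5:134946546-134947723) had 3.62 and 4.78 at DAY6, 7.58 and 7.16 at DAY9 and 5.63 and 2.44 at ESC, also highest in DAY9.

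The 10 regions of highest rank, by the lowest of their 6 percentiles by score in the lists, had folds of 10.2 or more in all 6 libraries. Those ranked 1, 2 and 10 lay on chromosome 3 among the Tdpoz and Spopfm genes, a family of near-identical copies expressed in the early embryo, 6.27 to 8.39 kb from Tdpoz5, Tdpoz7 and Spopfm2. At Tdpoz5 (chr3:93969707-93970688) the folds were 17.5 and 16.6 at DAY6, 21.1 and 19.3 at DAY9 and 20.5 and 13.1 at ESC, and at Tdpoz7 (chr3:94080503-94081476) 16.8 and 17.4, 18.2 and 19.02, and 16.1 and 11.9. DAY9 lay above DAY6 at both. In all, 7 members lay in or beside the 1109 kb that hold the 9 genes of this family, a grouping made after the values were seen, and those at Rptn and S100a11 among them were nearest to genes outside it. Reads from such copies can map to more than 1 of them, so which copy was open is uncertain. Outside the family, the third (chr9:124267598-124268425) lay inside Gm39469, and the fourth (chr4:5515217-5516052, 128 kb from Fam110b) had 13.6 and 16.3, 20.2 and 20.9, and 21.8 and 16.8. It showed DAY9 above DAY6. The others were nearest to Mmp16 (278 kb), Magi1 (45.1 kb), Il7 (68.6 kb), Oxsm (259.5 kb) and Hdgfl1 (653 kb). Ranked by fold, 6 of these 10 were again among the first 10.

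Members were seldom close to each other. Members were joined into clusters across gaps of up to 12.47 kb, the largest found under the distance that is often used to stitch enhancers together. Of the members, 289 (8.40%) lay in 141 clusters, 6 of which held 3 or more. The share was 7.56% for regions open from day 3, 5.46% from day 9 and 20.4% in ESC alone, and it depends on the size of each set. After the cluster at Prdm14, those of 3 with the highest rank lay 139 kb from Pcmtd1 (chr1:7312304-7319946), 44.2 kb from Mbd5 (chr2:49363885-49376706), 110 kb from Slc1a3 (chr15:8821212-8832603) and inside Tex21 (chr12:76214607-76223684). Within a cluster strength differed. In that near Mbd5, which encodes a methyl-CpG-binding domain protein, the first region had folds of 15.8 and 13.6 in DAY9 and the other 2 between 5.14 and 6.45. Near Pcmtd1 the middle region had its highest folds in DAY6 (8.12 and 8.60, against 6.15 and 5.81 in DAY9), and its neighbours did not.

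Some genes had several members within 50 kb. Rbm20, a splicing factor gene, had 5, all inside it, of which 1 (chr19:53806532-53807259) reached 16.1 and 14.7 in DAY9 from 10.5 and 4.98 at DAY6, with 10.2 and 6.19 in ESC. Ptprn2, Gm36079 and Gm21188 had 5 as well, shared between the last pair, whose sequences on chromosome 13 may be near-identical copies. Of all coding genes, 3697 had 1 member, 697 had 2 and 142 had 3 within 50 kb.

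Of the members, 91.4% had another merged region within that stitching distance, at a median gap of 2.02 kb. This was close to the 88.97% of all merged regions, at a median gap of 2.203 kb. The share was 94.19% for regions open from day 3, 93.73% from day 9 and 78.40% in ESC alone. The region nearest to a member was open from day 6 too in 3.59%, where 1.71% of all regions with a neighbour had such a one. It had a MEF peak and no ESC peak in 18.3%, against 27.2% of all, and was found in ESC alone in 7.91%, against 6.71%. The comparison sets went the same way. Regions open from day 3 had a neighbour open from day 3 in 2.82%, against 1.35% of all. Those from day 9 had one of their own set in 1.73%, against 1.25%, and those in ESC alone in 12.4%, against 6.71%. The nearest had a MEF peak and no ESC peak in 22.2%, 20.1% and 21.5% of these sets. These shares were not tested against each other.

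The position of the peak within a member could be followed in 3131 members with a single peak in each library. Peak midpoints differed by a median of 47.5 bp between the DAY6 libraries, 30.5 bp between those of DAY9 and 48.5 bp between those of ESC. Between DAY6 and DAY9 the difference was 42.5 to 44.0 bp, and between DAY6 and ESC 51.5 to 61.0 bp. The shift between DAY6 and DAY9 was thus no larger than between the DAY6 libraries. By chromosome, members made up between 1.396% of the regions on chromosome 15 and 1.98% on chromosome 1 among the autosomes, 1.78% on X and 0.898% (3 regions) on Y.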

How the data were processed

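ATAC-seq peak lists of 10 mouse libraries, 2 for each of MEF, DAY3, DAY6, DAY9 and ESC, were used. Bowtie2 2.3.2, deepTools 2.3.6, MACS2 2.1.1 and the build mm10 are named in the submitters' processing notes, without their settings. The authors deposited 1 list for each library, not for pooled replicates, with a score, a fold (a linear ratio), a −log10 p-value and a −log10 q-value for each peak. No −log10 p-value was under 5. How duplicates and the transposase offset were handled is not given in the sources used here. Summit positions hold no value in the lists, so peak midpoints replaced them, also in the alternative with 500 bp windows. These are the authors' values and rank or describe peaks within a list. Comparisons of fold between lists are descriptive, since depth differed.

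Overlapping peaks (1 bp or more) of all lists were merged with Python 3.11.15, numpy 2.4.6 and pandas 2.3.3. Depth was taken from the background pileup that the fold and −log10 p-value imply, with a tolerance of 0.01 and for −log10 p up to 300. Replicates were compared by the mean squared difference of summit pileups relative to counting noise, scaled by their median ratio at those heights. With the ratio over all heights, which was computed first, MEF moved from 5.56 to 10.8 and ESC from 8.11 to 9.27, and the other stages stayed the same to 2 decimals. The scaling within the heights was kept because an earlier account of these data used it.

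Gene positions and sequences are from RefSeq (GRCm38.p6). Starts are listed for 79.9% of the 21887 coding genes. No genome sequence was used, so exons, introns and base composition of the regions are not analysed here. No test was made: presence of peaks chose the regions, and the members and gene lists were chosen with earlier results of these data known. Genes named are those of the lists within 50 kb of a member (up to 6 a list in full, by rank), the 10 regions of highest rank, the first 5 clusters, the 5 genes with most members (of which 1 is not reported here) and the 5 gene starts of highest rank. A rank is the lowest of a region's 6 percentiles by score. Alternatives changed list length, peak threshold, overlap, merging, windows and libraries. The merging and counting were tested on simulated data.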

Additional observations from a re-analysis of the deposited data

How the results depend on the processing

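The number of regions open from day 6 and the order of the gene lists depended on the peak threshold and the peak number. With 45497 peaks in every list 1465 regions were left, with only peaks of −log10 p of 10 or more 2131, and with that threshold in DAY6, DAY9 and ESC alone 1122. These 3 settings gave 9.95%, 14.0% and 7.27% of coding genes with a member within 50 kb, and 5.46%, 5.40% and 4.46% of members in clusters. The share at a gene end became 12.4% and 14.1% and the median distance 22.3 and 20.4 kb under the first and second setting. With equal peak numbers the gene counts were 3 (signalling), 1 (mesenchymal), 4 (extraembryonic), 3 (neural), 5 (chromatin) and 0 (broadly expressed). With the threshold in all lists they were 2 (mesenchymal), 3 (extraembryonic), 3 (neural) and 1 (broadly expressed). With the threshold in DAY6, DAY9 and ESC alone they were 7 (pluripotency factors), 6 (markers), 2 (signalling), 4 (epithelial), 1 (mesenchymal), 2 (extraembryonic), 2 (neural), 4 (chromatin) and 0 (broadly expressed). Fewer peaks were compared under each, by construction.

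A gap of 5 kb or 25 kb put 4.04% or 14.3% of members in clusters, and a window of 2.5 kb put 14.5% at a gene end. With a window of 20 kb, 12.7% of coding genes had a member, with 3 signalling, 5 chromatin and 2 germ cell genes. A window of 100 kb gave 32.0% and 10 neural genes. By the nearest gene alone the values were 12.1%, 7 epithelial genes and 1 germ cell gene. The next 2 alternatives, on 50% cover of a region and on MEF or DAY3 peaks within 500 bp, were chosen after seeing the data. Where a peak had to cover 50% of its region, 11.5% of members lay at a gene end, the median distance was 20.96 kb, 5.99% were in clusters, 16.6% of coding genes had a member, and 4 mesenchymal, 5 extraembryonic, 4 chromatin and 1 germ cell genes did. Without members within 500 bp of a MEF or DAY3 peak, 19.6% of coding genes had one. Ranked by fold, the median percentile was 61.5 in place of 60.6. The planned overlap of 50% of the shorter of peak and region changes nothing by construction, and with 500 bp windows 3455 regions were found.

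Leaving out each library in turn gave 3532 to 4887 regions, 9.11% to 11.9% at a gene end, median distances of 21.8 to 25.4 kb, 8.44% to 10.9% in clusters and 21.2% to 28.0% of coding genes. Leaving out a library removes a condition of the rule. The number of regions, the share of coding genes and the gene counts can therefore only stay or rise, by construction. The gene counts were 13 to 18 (pluripotency factors), 11 to 13 (markers), 6 to 10 (signalling), 12 to 16 (epithelial), 8 to 11 (mesenchymal), 8 to 10 (extraembryonic), 6 to 8 (neural), 8 to 10 (chromatin), 4 to 6 (germ cell) and 3 to 4 (broadly expressed). No paired analysis was possible because the result comes from no test. The lowest of a member's 6 −log10 p-values lay most often in DAY6, and the part of depth in this was not tested. A region absent from the set may have had a signal under the threshold.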

Other observations

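The strongest and the weakest members differed in place, in a split made after the data were seen and given without a test. Of the 347 members in the strongest 10% by rank, 6.63% lay within 1 kb of a gene end and 28.0% over 100 kb from any. Of the 399 in the weakest 10%, where ties at the edge were kept, 10.8% and 19.3% did. The median width was 955 bp in the former and 729 bp in the latter.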
